A study of Mus musculus with 40 samples.

Results

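The FOS, JUN and EGR families of immediate early transcription factors were followed by RNA-seq in bone marrow-derived macrophages (BMDMs), which are primary macrophages grown from mouse bone marrow with M-CSF. The set was fixed by gene symbol, as Fos, Fosb, Fosl1, Fosl2, Jun, Junb, Jund, Egr1, Egr2 and Egr3, and all 10 genes were found among the 43430 genes of the count table. Of these, 9 passed the filter on low counts, and Egr3 did not. BMDMs came from 5 WT and 5 NDI1 mice on a C57/Bl6 background, and the authors describe the NDI1 line as mixed J and N substrains. All of the mice carried VAV-Cre, a recombinase driven by a promoter active in hematopoietic cells. In NDI1 mice this Cre switches on the yeast NADH dehydrogenase NDI1 from the Rosa26 locus by removal of a stop cassette, so its expression depends on that promoter. The NDI1 transcript itself was not analysed here. The mice were young adults of both sexes. Each mouse gave 1 untreated culture, 1 with LPS at 100 ng/ml for 4 h, 1 with the complex I inhibitor piericidin A at 500 nM and 1 with both agents, with piericidin A added 30 min before LPS, which gave 40 libraries in 8 groups of 5. The time for which cells were kept in piericidin A without LPS is not given separately.

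FOS and JUN proteins are basic leucine zipper factors that pair with each other to form AP-1. JUN proteins can bind DNA as pairs of their own, whereas FOS proteins need a partner. EGR proteins are zinc-finger factors that bind GC-rich sites. Most of these genes are switched on within minutes of a stimulus, without new protein synthesis, through serum response factor, ternary complex factors, CREB and ATF proteins, and many of their transcripts are short-lived. In macrophages, LPS acts through Toll-like receptor 4, which activates NF-kB and the MAP kinases that control these genes. Piericidin A blocks NADH oxidation by mitochondrial complex I, and NDI1 is an NADH dehydrogenase that the drug does not block. Comparison of the genotypes therefore asks which responses to piericidin A differ when NADH can still be oxidized.

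The sequences upstream of the start sites are shown for the 4 genes whose response to piericidin A without LPS turned out largest and for Fos, which did not pass the test. Each line holds the 250 bases before the RefSeq start site (build GRCm38.p6), read 5′ to 3′ on the strand of the gene. Egr2 has 5 RefSeq starts, and the one used lies 24 bases from the start in the deposited table. Capitals mark the CRE-like forms TGACATCA and TTACCTCA, the CRE core TGACGT, the TATA box TATAAA and matches to the NF-kB consensus.
Jun (chr4:95052223-95052472, minus strand): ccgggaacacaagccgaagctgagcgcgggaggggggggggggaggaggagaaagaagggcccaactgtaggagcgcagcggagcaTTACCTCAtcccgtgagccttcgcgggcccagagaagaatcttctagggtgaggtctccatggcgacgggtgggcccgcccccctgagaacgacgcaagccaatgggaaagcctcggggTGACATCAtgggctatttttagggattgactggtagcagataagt
Fosb (chr7:19310046-19310295, minus strand): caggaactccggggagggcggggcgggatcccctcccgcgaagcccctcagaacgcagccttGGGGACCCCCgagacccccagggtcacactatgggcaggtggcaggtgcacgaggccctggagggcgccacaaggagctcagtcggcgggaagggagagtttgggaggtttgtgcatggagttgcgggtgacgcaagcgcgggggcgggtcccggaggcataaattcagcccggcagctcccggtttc
Egr2 (chr10:67535249-67535498, plus strand): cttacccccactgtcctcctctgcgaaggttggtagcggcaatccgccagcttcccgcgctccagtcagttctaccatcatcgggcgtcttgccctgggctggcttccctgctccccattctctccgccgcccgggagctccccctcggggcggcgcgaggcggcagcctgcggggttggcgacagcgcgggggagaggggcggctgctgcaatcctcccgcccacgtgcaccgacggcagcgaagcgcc
Junb (chr8:84978749-84978998, minus strand): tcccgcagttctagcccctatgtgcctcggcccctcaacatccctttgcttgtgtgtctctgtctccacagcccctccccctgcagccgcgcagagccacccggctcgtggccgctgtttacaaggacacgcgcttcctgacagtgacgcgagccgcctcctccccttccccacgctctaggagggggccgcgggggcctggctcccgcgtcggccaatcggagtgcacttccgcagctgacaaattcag
Fos (chr12:85473640-85473889, plus strand): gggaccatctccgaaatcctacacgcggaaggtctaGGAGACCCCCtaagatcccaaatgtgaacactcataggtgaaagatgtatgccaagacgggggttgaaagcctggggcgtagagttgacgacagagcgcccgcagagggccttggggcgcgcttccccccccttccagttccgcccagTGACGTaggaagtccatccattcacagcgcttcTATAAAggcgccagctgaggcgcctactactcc

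Promoters from RefSeq were searched on both strands for 7 of the 10 members, and those of Fosl1, Egr1 and Egr3 were not searched. The Jun promoter held TGACATCA from 45 to 38 bases before the start and TTACCTCA from 164 to 157 bases before it. These forms occurred in 2.93% and 0.728% of 32851 promoters of the same length. The Fos promoter held TGACGT, the first 6 letters of the CRE TGACGTCA, from 66 to 61 bases before the start, and this core occurred in 6.47% of all promoters. A TATA box stood from 33 to 28 bases before the Fos start and occurred in 12.4% of promoters. Matches to the NF-kB consensus were found in Fos from 214 to 205 bases before the start, in Fosb from 188 to 179 bases before it and in Fosl2, against 3.9% of all promoters. The full AP-1 site TGACTCA (4.46% of promoters), the full CRE TGACGTCA (1.55%), the CArG box (1.47%), the EGR site GCGTGGGCG (0.536%) and the ETS core CCGGAA (12.0%) were found in 0 of the 7 windows. The SP1 box GGGCGG was found in 5 of the 7 and in 32.7% of all promoters. A match describes letters in the window and not a bound site.

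The libraries held 6950748 to 13552070 counts (median 10361773.5), and levels are given in CPM, which are reads per 1000000 counted reads. Macrophage markers summed to between 19674.0 and 38691 CPM in all libraries, all 8 of them were tested, and the sums of T cell, B cell, dendritic cell, mast cell and erythroid markers reached at most 1.44, 11.6, 26.9, 6.45 and 0.126 CPM. Neutrophil markers, of which 4 of 5 were tested, stood apart in 2 mice. In WT mouse 496 they summed to 260.5 CPM untreated, 599.9 with LPS, 918 with piericidin A and 1509 with both, and in NDI1 mouse 503 to between 262 and 524 CPM. The other 8 mice lay between 8.69 and 106 CPM. The neutrophil sum was higher with piericidin A in 5 of 5 WT mice and in 4 of 5 NDI1 mice, without LPS and again under LPS, and its part in the piericidin A results was not tested. Fibroblast markers were also highest in mouse 496, at 30.6 to 104 CPM against 0.754 to 17.4 CPM in the other mice. The results that rest on mouse 496 are therefore also given without it. In bulk RNA, fewer cells of a type and less RNA per cell cannot be told apart.

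Per kilobase of exon, the JUN family and Fos were the most abundant members in untreated WT BMDMs. Junb stood highest at 107 ± 14.8 CPM per kb (SD, n = 5), followed by Jund at 71.7 ± 8.40, Fos at 42.1 ± 15.1 and Jun at 28.8 ± 3.20. Junb, at 93.6 CPM per kb or more in every mouse, did not overlap with Jund, which reached 84.3. Fos ranged from 25.0 to 63.2 CPM per kb and overlapped with both of its neighbours in this order. Fosl2 followed at 5.26 ± 1.60 CPM per kb, Egr2 at 2.36 ± 1.07 and Egr1 at 1.49 ± 0.614, with overlapping ranges for each pair of neighbours. Fosl1, at 0.435 ± 0.430, and Fosb, at 0.340 ± 0.147, could not be ordered, and Egr3 was lowest at 0.0777 ± 0.0464. The gene lengths deposited by the authors differ from the exon lengths used here for all members but Jun. For Jund they give 2878 bases against 1668, and for Fos 4368 against 2352, so the order depends on the annotation. Egr3 had at most 17 counts in any library and 0 counts in 3 libraries, where 3 counts would be the limit that a 0 allows. Fosl1 had 1 to 28 counts per library, and its changes were not detectable at this depth in any comparison described here without pairing by mouse.

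**Figure D1:**
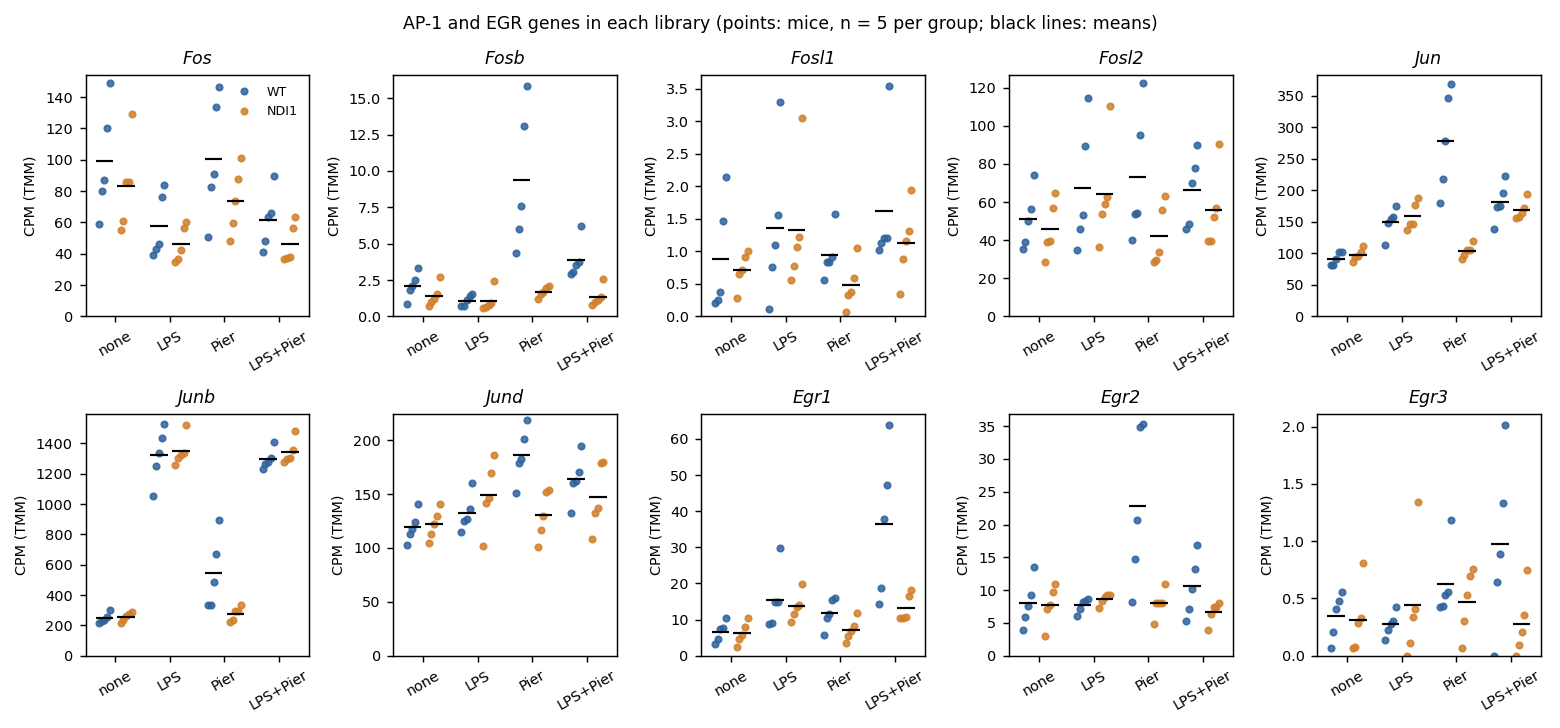
Level of each of the 10 genes in every library, in CPM scaled by TMM factors on a linear axis from 0, by treatment (none, LPS, piericidin A shown as Pier, or both). Points are mice, black lines are means of 5, and colours are genotypes. The WT points with piericidin A alone stand above the NDI1 points for Jun, reaching 369 against at most 120.3 CPM, and Junb is at 1055 CPM or more wherever LPS was given.

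Junb, Jun and Egr1 were higher and Fos was lower with LPS in both genotypes when libraries were scaled by TMM factors (trimmed means of the log ratios between libraries), and Jun and Egr1 did not pass when they were scaled to their totals. Fos, the founding FOS protein, measured 58.8, 80.3, 87.4, 120.0 and 149 CPM in the 5 untreated WT mice and 39.2, 43.2, 46.0, 76.0 and 84.1 CPM with LPS. The groups overlapped, but Fos was lower with LPS in 5 of 5 WT mice and in 5 of 5 NDI1 mice. All LPS libraries were taken at 4 h, and changes at earlier times were not measured. Its log2 fold change was −0.78 (SE 0.28, adjusted p = 0.017) in WT and −0.85 (SE 0.28, adjusted p = 0.0094) in NDI1 BMDMs by edgeR's quasi-likelihood test with Benjamini-Hochberg adjustment, which is the source of every adjusted p given here. Fosb, a FOS protein known for its stable splice forms, was at 2.12 ± 0.917 CPM untreated and 1.09 ± 0.369 CPM with LPS in WT, a log2 fold change of −0.97 (SE 0.42, adjusted p = 0.044). This rested on 5 to 49 counts per library and held in 1 of the 5 fits that each left out a WT mouse, with adjusted p from 0.015 to 0.16. In NDI1 BMDMs the Fosb difference was −0.38 (adjusted p = 0.46), or −1.11 (adjusted p = 0.043) without mouse 521. Fosl2, whose protein is also called FRA2, moved by 0.40 (95% interval −0.24 to 1.05) in WT.

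Junb, which encodes a JUN protein that activates or restrains AP-1 targets depending on its partner, showed the clearest separation. It measured 215, 227, 234, 253 and 302 CPM in untreated WT BMDMs, and 1055, 1254, 1334, 1433 and 1529.6 CPM with LPS. The groups lay far apart, with a log2 fold change of 2.42 (SE 0.18, 5.36-fold, adjusted p = 1.8e-14), and the NDI1 value was 2.41. Jun itself went from 81.6, 82.0, 91.0, 102 and 102 CPM to 114, 148, 155, 157 and 175 CPM, also without overlap. Its log2 fold change was 0.71 in WT (SE 0.15, adjusted p = 6.9e-05) and 0.70 in NDI1 BMDMs (adjusted p = 8.2e-05), but −0.08 and −0.07 when libraries were scaled to their totals. Jund, the most constant JUN gene in many cell types, moved by 0.15 in WT (adjusted p = 0.38) and by 0.29 in NDI1 BMDMs (adjusted p = 0.081, or 0.0071 with pairing by mouse), and by −0.64 and −0.48 under library totals. Jun overlaps the antisense gene Junos, Junb overlaps Prdx2 and Jund overlaps Gm11175, and since the use of strand in the counting is not stated these 3 genes are less certain, as is Fosl1, which overlaps Ccdc85b.

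Egr1, a zinc-finger factor induced by growth factors and stress, measured 3.30, 4.67, 7.26, 7.78 and 10.3 CPM untreated and 8.70, 8.93, 14.8, 15.0 and 29.9 CPM with LPS in WT. These ranges overlapped slightly, and each of the 5 WT and 5 NDI1 mice was higher with LPS. Its log2 fold change was 1.22 (SE 0.39, adjusted p = 0.0074) in WT and 1.14 (adjusted p = 0.013) in NDI1 BMDMs, and 0.41 (adjusted p = 0.31) in WT under library totals. Egr2, best known for its roles in myelinating cells and lymphocytes, was at 8.02 ± 3.65 and 7.69 ± 1.04 CPM, a log2 fold change of −0.06 (95% interval −0.72 to 0.60).

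In WT, 3 of the 9 tested members passed the test as higher and 2 as lower, and the shares over all 11853 tested genes were 31.5% and 31%. For NDI1 BMDMs the numbers were 3 higher and 1 lower, against 31.5% and 31.2% of all genes. They were 1 higher (Junb) and 3 lower (Fos, Fosb and Jund) under library totals, to which these shares do not apply. LPS thus changed most genes, and the members did not stand out by their number. These directions depend on how libraries were put on a common scale. TMM factors lay between 0.696 and 0.899 in the 20 libraries with LPS and between 1.13 and 1.37 in the 20 without, whereas the 20 most counted genes took similar shares of the reads (14.9 to 19.1% and 15.4 to 20.1%). Under library totals the median of all genes was −0.78 rather than −0.01, Junb stayed higher at 1.63, Fos and Fosb stayed lower at −1.58 and −1.75, Jund and Egr2 passed the test as lower at −0.64 and −0.83, and Jun and Egr1 did not pass. Relative to the median of all genes, Junb, Jun and Egr1 were higher and Fos and Fosb lower in WT under both scalings. The distance from that median was not tested. The difference of the LPS effect between the genotypes passed the test for 0 of 9 members and for 0% of all genes, with 0 members at an unadjusted p under 0.05 and 0 by DESeq2. For Junb that difference was −0.02 (95% interval −0.49 to 0.45).

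**Figure D2:**
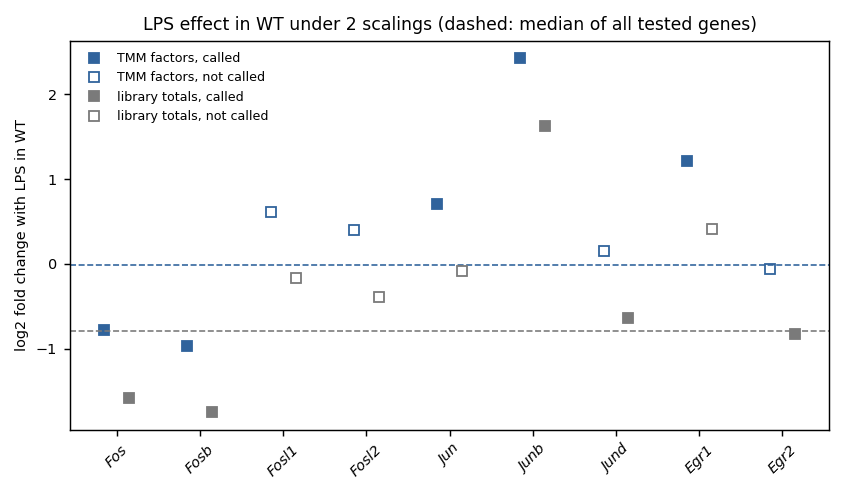
Log2 fold change with LPS in WT BMDMs of the 9 tested genes, with libraries scaled by TMM factors (blue) or by their totals (grey). Filled squares passed an adjusted p of 0.05, and dashed lines are the medians of all tested genes, at −0.01 and −0.78. Junb is above and Fos and Fosb are below 0 in both, whereas Jun is at 0.71 with TMM factors and at −0.08 with library totals, and Jund at 0.15 and −0.64.

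Piericidin A without LPS raised Fosb, Jun, Egr2, Junb and Jund in WT BMDMs, by 4.42-, 3.03-, 2.83-, 2.21- and 1.56-fold, and changed none of the 9 members detectably in NDI1 BMDMs. Jun measured 180.2, 218, 278, 347 and 369 CPM in the 5 WT mice with piericidin A, all above the untreated values given above, which reached 102. In NDI1 BMDMs it measured 86.4, 94.2, 95.5, 102 and 112 CPM untreated and 90.5, 98.0, 105, 106 and 120.3 CPM with piericidin A. WT cells therefore separated completely by treatment, and NDI1 cells did not. The log2 fold change of Jun was 1.60 (SE 0.15, adjusted p = 7.6e-10) in WT and 0.08 (SE 0.15, 95% interval −0.20 to 0.37) in NDI1 BMDMs. Mouse by mouse, the WT differences ranged from 0.98 to 1.85 and the NDI1 differences from −0.06 to 0.18.

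Junb with piericidin A was at 331, 337, 484, 672 and 893 CPM in WT, above each untreated library, the highest of which had 302 CPM. In NDI1 BMDMs it was at 254 ± 28.7 CPM untreated and 277 ± 46.8 CPM with piericidin A, and the ranges overlapped. The WT log2 fold change was 1.14 (SE 0.17, adjusted p = 1.4e-05). Jund rose from 103, 113, 117, 124 and 141 CPM to 151, 179, 182, 201 and 219 CPM in WT, again without overlap, by 0.64 (SE 0.15, adjusted p = 0.0026). NDI1 BMDMs had 122 ± 14.1 CPM untreated and 131 ± 22.6 CPM with the drug.

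Fosb rose from the lowest levels among the genes that passed the test. Untreated WT BMDMs held 0.825, 1.83, 2.12, 2.53 and 3.32 CPM of Fosb, and piericidin A brought these to 4.39, 6.04, 7.56, 13.1 and 15.9 CPM. The groups did not overlap, and behind them stood 13 to 49 and 63 to 226 counts. The log2 fold change was 2.14 (SE 0.37, adjusted p = 0.00011). NDI1 BMDMs had 1.42 ± 0.763 CPM without and 1.69 ± 0.359 CPM with piericidin A. Egr2 moved in parallel, from 3.93, 5.87, 7.53, 9.26 and 13.5 CPM to 8.21, 14.7, 20.7, 34.9 and 35.3 CPM in WT. Its groups overlapped, yet all 5 mice were higher with the drug, and its log2 fold change was 1.50 (SE 0.33, adjusted p = 0.0015). Egr2 in NDI1 BMDMs had medians of 7.71 and 8.08 CPM without and with the drug.

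Fos did not pass the test with piericidin A alone. It measured 50.5, 82.7, 90.6, 134 and 146 CPM with piericidin A in WT, a range close to that of the untreated cells. It was higher in 3 mice and lower in 2, and its log2 fold change was 0.03 (adjusted p = 0.96), with a 95% interval from −0.52 to 0.57. Fosl2 moved by 0.52 (95% interval −0.12 to 1.17) and Fosl1 by 0.09 (95% interval −1.09 to 1.27). Egr1 was higher in 5 of 5 WT mice, at 11.8 ± 4.14 against 6.67 ± 2.75 CPM, and its log2 fold change of 0.84 (SE 0.39) had an adjusted p of 0.15, or 0.0083 with pairing by mouse.

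**Figure D3:**
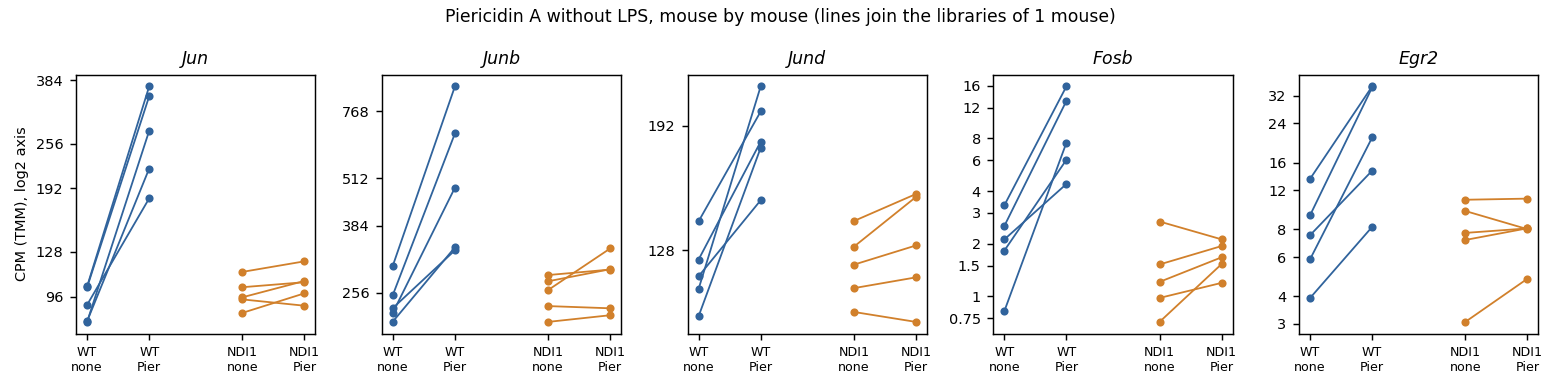
Level of Jun, Junb, Jund, Fosb and Egr2 without and with piericidin A (Pier), in CPM scaled by TMM factors on a log2 axis. Each line joins the 2 libraries of 1 mouse, for 5 WT mice (blue) and 5 NDI1 mice (orange). The WT lines rise in 5 of 5 mice for each gene, those of Jun from at most 102 to at least 180.2 CPM, and those of NDI1 rise in 4 of 5 mice and fall in 1 for each gene.

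The 5 called members compare with 7.79% of all tested genes that passed as higher in this contrast, and at an unadjusted p under 0.05 the members numbered 6. DESeq2 called 5, and the same 5 were called whichever WT mouse was left out and under library totals. Over all genes, 923 of the called genes were higher and 836 lower, or 503 and 1708 under library totals, where the median of all genes was −0.13. Without mouse 496 the log2 fold changes were 1.52 for Jun, 2.23 for Fosb, 1.55 for Egr2, 1.07 for Junb and 0.56 for Jund, with adjusted p from 3.4e-08 to 0.027. In NDI1 BMDMs, 0 of 9 members and 0% of all genes passed the test, with 0 members at an unadjusted p under 0.05 and 0 by DESeq2, and the members' log2 fold changes lay between −0.55 and 0.26.

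The genotypes were then compared directly. The piericidin A effect was smaller in NDI1 than in WT BMDMs for Jun, by −1.52 on the log2 scale (SE 0.21, adjusted p = 1.6e-05), and for Junb, by −1.02 (SE 0.24, adjusted p = 0.020), and 1.1% of all tested genes passed in this direction. For Fosb the difference was −1.89 (SE 0.54, adjusted p = 0.074), for Egr2 −1.44 (SE 0.46, adjusted p = 0.13) and for Jund −0.54 (SE 0.21, adjusted p = 0.26). With pairing by mouse, which called 8.96% of all genes, all 5 passed, at 5.4e-08 for Jun, 0.0013 for Junb, 0.0091 for Fosb, 0.0031 for Egr2 and 0.0045 for Jund, and DESeq2 called 3. The Jun difference passed whichever of the 10 mice was left out. The Junb difference passed in 3 of these 10 and not without mouse 449, 460, 461, 496, 503, 520 or 521, with an adjusted p of at most 0.10. Without mouse 496 the values were −1.44 (adjusted p = 8.7e-05) for Jun and −0.94 (adjusted p = 0.10) for Junb.

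The genotypes were also compared under each treatment, in contrasts that share these libraries. Untreated NDI1 and WT BMDMs differed for 0 of 9 members and 0% of all genes, and LPS-treated ones likewise for 0 of 9 and 0%, with 0 members at an unadjusted p under 0.05 and 0 by DESeq2 in both. With piericidin A, 5 members were lower in NDI1 than in WT BMDMs, and so were 4.31% of all tested genes. Fosb differed by −2.47 (SE 0.38, adjusted p = 2.8e-05), Egr2 by −1.50 (SE 0.33, adjusted p = 0.0024), Jun by −1.42 (SE 0.15, adjusted p = 1.8e-08) and Junb by −0.97 (SE 0.17, adjusted p = 1.8e-04). Jund differed by −0.51 (SE 0.15, adjusted p = 0.024), which passed in 5 of 10 fits without 1 mouse and not without 449, 453, 461, 496 or 503, and had an adjusted p of 0.075 under library totals. Of the genes called in this contrast, 44.7% were higher in NDI1 BMDMs, or 72.7% under library totals.

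Under LPS, piericidin A raised Fosb and Egr1 in WT BMDMs. Fosb measured 0.681, 0.748, 1.12, 1.37 and 1.51 CPM with LPS and 2.94, 3.08, 3.54, 3.72 and 6.25 CPM with LPS and piericidin A. The groups did not overlap, and the log2 fold change was 1.84 (SE 0.42, 3.59-fold, adjusted p = 0.0026). NDI1 BMDMs had 1.08 ± 0.783 CPM with LPS and 1.36 ± 0.713 CPM with both. Egr1 reached its highest levels of all 8 groups here, at 14.2, 18.7, 37.9, 47.2 and 63.9 CPM in WT with both agents, against 8.70 to 29.9 CPM with LPS. These ranges overlapped and 4 of 5 mice were higher with both. The log2 fold change of Egr1 was 1.24 (SE 0.38, 2.36-fold, adjusted p = 0.022), and it did not pass without mouse 449 or without mouse 520, where the highest adjusted p was 0.10. In NDI1 BMDMs Egr1 was at 13.7 ± 3.96 CPM with LPS and 13.3 ± 3.84 CPM with both. Neutrophil markers went from between 30.8 and 599.9 CPM with LPS to between 59.9 and 1509 CPM with both in WT, and their part in the result was not tested.

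Jun, Junb and Egr2 showed smaller differences under LPS. Jun measured 138, 174, 176, 195 and 223 CPM in WT BMDMs with both agents, overlapping with LPS alone, a log2 fold change of 0.28 (SE 0.15, adjusted p = 0.19, or 0.039 with pairing by mouse). Jund was at 164 ± 22.6 against 133 ± 17.1 CPM, 0.31 (SE 0.15, adjusted p = 0.15, or 0.0083 with pairing). Junb was at 1296 ± 70.1 against 1321 ± 181 CPM, −0.03 with a 95% interval from −0.36 to 0.30. Egr2 moved by 0.46 (95% interval −0.21 to 1.13) and Fos by 0.10 (95% interval −0.46 to 0.66). In all, 2 of 9 members passed against 7.81% of all genes, 3 had an unadjusted p under 0.05 and DESeq2 called 2. Without mouse 496 Fosb was at 1.98 (adjusted p = 0.012) and Egr1 at 1.31 (adjusted p = 0.031). The 926 genes called higher made up 46.7% of all calls, or 58.8% under library totals. NDI1 BMDMs showed 0 of 9 members and 0% of genes, with 0 members at an unadjusted p under 0.05 and 0 by DESeq2.

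With both agents, Fosb and Egr1 were lower in NDI1 than in WT BMDMs by −1.52 (SE 0.41, adjusted p = 0.012) and −1.46 (SE 0.38, adjusted p = 0.011), and 6.13% of all tested genes were lower. Both passed in each of 10 fits without 1 mouse. The difference of the piericidin A effect under LPS between genotypes passed for 0 of 9 members by edgeR and by DESeq2, against 0.979% of all genes, with Egr1 (−1.28, SE 0.54, adjusted p = 0.27) and Fosb (−1.54, SE 0.62, adjusted p = 0.24) at an unadjusted p under 0.05. Pairing by mouse gave Egr1 −1.29 with an adjusted p of 0.018 and Fosb −1.58 with an adjusted p of 0.087.

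**Figure D4:**
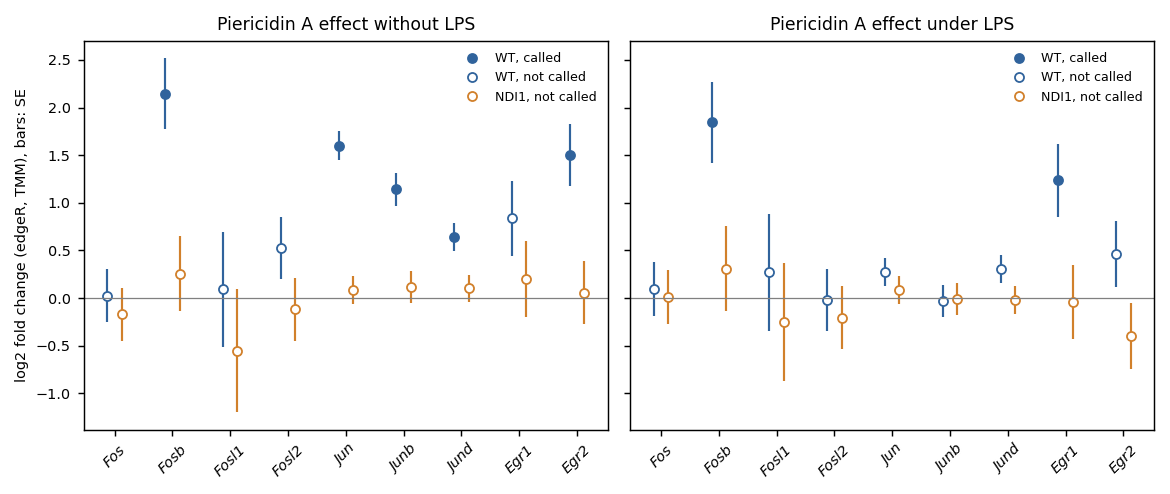
Log2 fold change with piericidin A of the 9 tested genes, without LPS (left) and under LPS (right), in WT (blue) and NDI1 (orange) BMDMs, fitted over 40 libraries. Bars are standard errors, and filled points passed an adjusted p of 0.05. Without LPS 5 WT points are filled, from 0.64 for Jund to 2.14 for Fosb, under LPS Fosb and Egr1 are filled, and no NDI1 point is.

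The LPS effect was also measured in the presence of piericidin A. In WT BMDMs LPS then raised Junb by 1.25 (adjusted p = 9.6e-08) and Egr1 by 1.62 (adjusted p = 4.9e-04), and lowered Jun by −0.62 (adjusted p = 4.7e-04), Egr2 by −1.10 (adjusted p = 0.0049), Fosb by −1.27 (adjusted p = 0.0036) and Fos by −0.71 (adjusted p = 0.035, called in 2 of 5 fits without 1 WT mouse). That is 2 members higher and 4 lower, against 25.8% and 26.2% of all genes. Under library totals 2 were higher and 6 lower, with Fosl2 and Jund added. The shares in this paragraph are for TMM factors and do not apply under library totals. In NDI1 BMDMs with piericidin A, LPS raised Junb by 2.28, Egr1 by 0.89 (adjusted p = 0.048) and Jun by 0.70 and lowered Fos by −0.67 (adjusted p = 0.039), so 3 were higher and 1 lower against 30.6% and 30.7%. Egr1 and Fos each passed in 1 of 5 fits without 1 NDI1 mouse, with adjusted p of at most 0.13 and 0.12, and under library totals Jun was at −0.04, with 1 member higher (Junb) and 4 lower (Egr2, Fos, Fosb and Jund). For Jun, 5 of 5 WT mice were lower with both agents than with piericidin A alone under both scalings, and 5 of 5 NDI1 mice were higher with TMM factors but 1 of 5 under library totals.

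Tested as an interaction of LPS with piericidin A in WT, the difference was −1.33 for Jun (SE 0.21, adjusted p = 8.1e-05) and −1.17 for Junb (SE 0.24, adjusted p = 0.0029). These 2 of 9 members compare with 2.16% of all genes in this direction. Without mouse 496 Jun was at −1.31 (adjusted p = 5.4e-04) and Junb at −1.03 (adjusted p = 0.051). Egr2 had −1.04 (adjusted p = 0.22, or 0.015 with pairing by mouse). This contrast reuses the values with piericidin A alone and is no separate evidence. Of the genes called here 54.5% were higher, or 79.8% under library totals, where the median of all genes was 0.16. In NDI1 BMDMs 0 of 9 members and 0% of genes passed, with 0 members at an unadjusted p under 0.05 and 0 by DESeq2.

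Shares among the members do not depend on how libraries are scaled, and 0.5 counts were added to both genes of each ratio. Of the reads counted on the 10 genes in untreated WT BMDMs, Junb took 39.5 ± 5.94%, Jund 19.2%, Fos 15.6%, Jun 14.7% and Fosl2 8.13%. With LPS, Junb took 75.4 ± 1.33%, and the JUN family as a whole went from 73.5 to 91.5% while the FOS family went from 24.2 to 7.16%. The median ratio of Junb to Fos reads went from 2.46 to 22.9 in WT and from 2.76 to 31.1 in NDI1 BMDMs. Piericidin A alone left the share of Junb at 43.0 ± 10.7% in WT but brought that of Jun from 14.7 to 22.6%, and the median ratio of Jun to Jund reads from 0.791 to 1.55. In NDI1 BMDMs the share of Jun was 15.8% untreated and 16.1% with piericidin A, and the ratio of Jun to Jund was 0.799 and 0.783. The median ratio of Fosb to Fos went from 0.0214 to 0.0897 in WT and was 0.0146 and 0.0246 in NDI1 BMDMs, where the ranges overlapped. The median ratio of Egr2 to Egr1 in WT was 0.968 untreated, 1.41 with piericidin A, 0.556 with LPS and 0.285 with both agents, and in NDI1 BMDMs it was 1.21, 0.984, 0.690 and 0.610 in the same order.

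**Figure D5:**
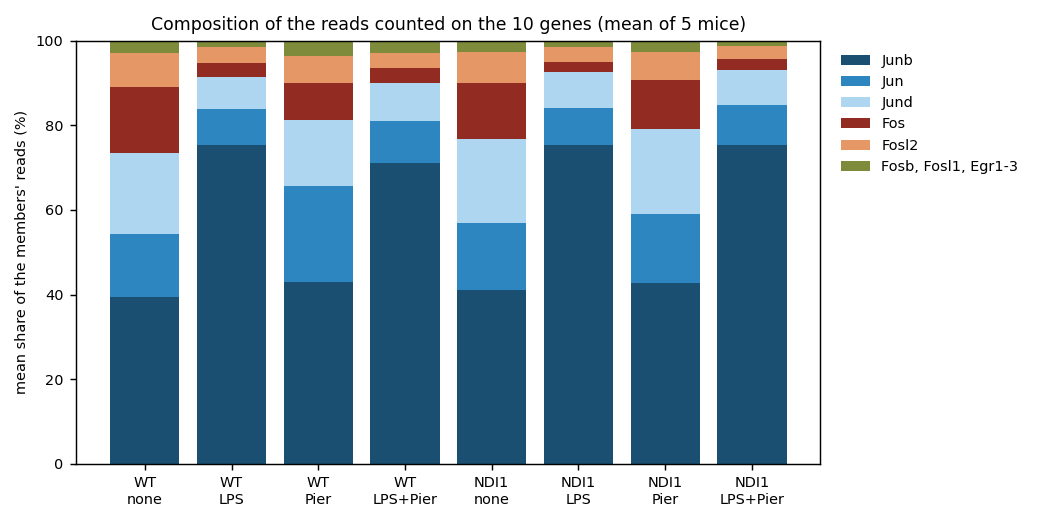
Mean share, in percent, of the reads counted on the 10 genes that each gene took in the 8 groups of 5 mice. Junb takes 39.5% in untreated WT BMDMs and 75.4% with LPS, and Jun (mid blue) takes 22.6% with piericidin A in WT against 16.1% in NDI1 BMDMs.

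Partners and relatives were examined in fixed lists. Shares of all tested genes beside them are with TMM factors and, unless stated, without pairing. Under library totals the median of all genes with LPS in WT was lower, so list counts on that scale cannot be set beside these shares. Of 12 bZIP genes whose proteins can pair with AP-1 members, 4 passed as higher and 1 as lower with piericidin A alone in WT, against 14.8% of all tested genes called (7.79% higher), and the median log2 fold change was 0.15 against −0.00 over all tested genes. Maff, a small MAF protein without an activation domain, went from 3.76 ± 1.86 to 24.8 ± 18.1 CPM (log2 fold change 2.70, SE 0.46, adjusted p = 7.1e-05). Atf3, a stress-induced repressor in macrophages, went from 308 ± 105 to 870.1 ± 441 CPM (1.50, SE 0.27, adjusted p = 1.7e-04), and Mafk and Jdp2 were the other genes that rose. Maf, a factor of macrophage identity, fell by 0.90 (adjusted p = 0.0059). The piericidin A effect was smaller in NDI1 BMDMs for Maff (−2.60, adjusted p = 0.032), Atf3 (−1.44, adjusted p = 0.042) and Mafk, 3 of the 12 against 1.27% of all tested genes, with 0 of 12 without mouse 496 and 1 higher and 4 smaller with pairing by mouse, against 8.96% of all genes with pairing. With LPS in WT, 7 of the 12 were higher and 1 lower, against 31.5% and 31% of all tested genes. The higher ones included Batf2 (4.97) and Batf (3.62), which pair with JUN proteins. Under library totals 6 were higher and 5 lower, while the median of all genes also fell. Under LPS, piericidin A lowered Maf from 1003 ± 198 to 467 ± 245 CPM (−1.10, SE 0.23, adjusted p = 9.0e-04).

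Of 3 EGR relatives and corepressors, Egr4 was not tested. Nab1 and Nab2, whose proteins bind EGR factors and restrain them, both rose with LPS in WT, by 1.13 (adjusted p = 5.7e-11) and 0.66 (adjusted p = 0.028), and 1 of the 2 did under library totals. Piericidin A alone changed 0 of the 2, and under LPS it lowered both, Nab2 from 43.8 ± 7.52 to 21.8 ± 9.21 CPM (−1.01, adjusted p = 0.0093) and Nab1 by 0.34 (adjusted p = 0.034), whereas 0 of 2 passed without mouse 496. Over all tested genes 62.5%, 14.8% and 16.7% were called in these contrasts.

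Among 24 upstream factors and MAP kinases, the transcripts changed with LPS in both directions, with 6 higher and 9 lower in WT. The 15 of 24 called with TMM factors stand beside 62.5% of all tested genes. Under library totals 4 were higher and 19 lower, on a scale where the median of all genes also fell. Map3k8, the kinase also called TPL2 that feeds the ERK pathway, went from 18.4 ± 1.82 to 142 ± 32.4 CPM (2.95), and Mapkapk2, a kinase downstream of p38, rose by 2.61. Mef2d and Mrtfb, which encode transcription factors upstream of immediate early genes, fell by 2.21 and 1.68. Piericidin A alone changed 1 of the 24, against 14.8% of all tested genes, and this was Mapk14, which encodes p38α, at 145 ± 9.60 CPM without and 89.3 ± 6.89 CPM with the drug (−0.70, SE 0.11, adjusted p = 1.5e-05). The list's median was 0.04, and 5 were higher and 4 lower with pairing by mouse, which called 34.2% of all genes, and 0 and 4 under library totals. Mapk14 was also the 1 gene of this list whose piericidin A effect differed between genotypes (0.64, adjusted p = 0.019), and it did not pass without mouse 496. Under LPS, piericidin A raised Mef2d (0.67) and Mrtfb (0.68) and lowered Mapk9 (−0.45) and Map2k1 (−0.39), 4 of the 24 against 16.7% of all tested genes, and 1 of the 24 passed without mouse 496.

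Of 23 other immediate early genes, 11 passed as higher and 1 as lower with piericidin A alone in WT, with a median of 0.83, against 14.8% of all tested genes called (7.79% higher), and 9 and 1 did without mouse 496. Csrnp1, which encodes a nuclear protein also called AXUD1, went from 6.40 ± 0.798 to 39.9 ± 23.4 CPM (2.64, SE 0.32, adjusted p = 3.2e-07), Ptgs2, which encodes cyclooxygenase-2, rose by 2.78 from 1.89 ± 0.912 CPM, and Klf10 fell by 0.52 (adjusted p = 0.0060). In the comparison of genotypes 6 of the 23 passed as smaller effects in NDI1 BMDMs, against 1.1% of all tested genes, led by Csrnp1 (−2.65, adjusted p = 6.3e-04) and Plk2, a polo-like kinase (−1.89, adjusted p = 0.023), with 3 of 23 left without mouse 496 and 10 with pairing by mouse, where 5.15% of all genes passed as smaller. LPS changed 16 of the 23 in WT, against 62.5% of all tested genes, with 15 higher and 1 lower, or 9 and 4 under library totals, from Ptgs2 (9.57) and Gadd45b (3.84) to Klf10 (−1.27). Under LPS, piericidin A raised 5 of the 23, among them Nr4a3 (2.08) and Csrnp1 (1.83), and lowered 3, Ier2 (−0.82), Btg2 (−0.91) and Mcl1, against 16.7% of all tested genes called, with 3 and 1 left without mouse 496. The Csrnp1 effect under LPS was smaller in NDI1 BMDMs (−1.67, adjusted p = 0.039), 1 of the 23 against 0.979% of all tested genes, and 0 without mouse 496.

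Textbook targets of AP-1 and EGR were tested for 17 of 18 genes. Piericidin A alone raised 7 and lowered 0 in WT, with a median of 1.15, against 14.8% of all tested genes called (7.79% higher), and the same numbers held without mouse 496. Hbegf, a growth factor, rose by 3.90 from 0.345 ± 0.320 CPM, and Plau, the urokinase gene, went from 49.6 ± 35.6 to 349 ± 189 CPM (2.82, adjusted p = 1.4e-05). The genotypes differed for Plau (−2.62, adjusted p = 0.010) and for Vegfa, the vascular endothelial growth factor gene (−1.73, adjusted p = 0.0018), 2 of the 17 against 1.27% of all tested genes, and for 8 with pairing by mouse, where the share of all genes was 8.96%. LPS raised 12, with Il6 (10.2) and Ccl2 (7.37) largest, and lowered Vegfa (−1.11), or 10 and 3 under library totals, and the 13 of 17 called stand beside 62.5% of all tested genes. Under LPS, piericidin A raised 4 of the 17, including Hbegf (2.29) and Plau (2.01), against 7.81% of all tested genes. The Vegfa effect under LPS was smaller in NDI1 BMDMs (−1.38, adjusted p = 0.033), 1 of 17 against 0.979% of all tested genes. In NDI1 BMDMs piericidin A changed 0 genes of any of these lists, without or under LPS, by edgeR with or without pairing. Over all 11853 genes, 58 and 127 had an unadjusted p under 0.05 in these contrasts, and DESeq2 called 0. In WT, pairing by mouse raised further counts past 1.5 times. Over all tested genes pairing called 34.2% with piericidin A alone, 34.5% with piericidin A under LPS, and 8.96% and 9.51% for the genotype differences without and under LPS. With piericidin A alone 5 bZIP genes were then higher and 3 lower, 1 of the EGR corepressors was higher, and 10 targets were higher and 1 lower. Under LPS it gave 3 bZIP genes higher and 4 lower rather than 0 and 2, 4 upstream genes higher and 5 lower, 7 other immediate early genes higher and 5 lower, and 7 targets higher and 1 lower. For the genotype difference under LPS it gave 1 bZIP gene, 2 upstream genes, 7 other immediate early genes and 5 targets. The members' own median with piericidin A alone in WT was 0.84.

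Across the 40 libraries, which share mice and treatments, members resembled different genes. By Pearson's r of log2 CPM, Junb was most like Gadd45b (0.994) and Ccl3 (0.988), Jun most like Bcl2l1 (0.898) and Rilpl1 (0.881), and Jund most like Blnk (0.810) and Lemd2 (0.787). Fosb was most like Vegfa (0.833) and Gde1 (0.805), Fos most like Abcc3 (0.788) and Itgb5 (0.785), Fosl2 most like Thbs1 (0.686) and Pde7b (0.681), and Fosl1 most like Hsp90ab1 (0.723) and Nop58 (0.707). Egr1 was most like Rftn1 (0.878) and Pkp4 (0.875), and Egr2 most like Plau (0.836) and Mafg (0.820). Among the members, Jun and Jund had the highest r (0.674) and Fos and Junb the lowest (−0.59). After the group means were removed, Fos and Egr1 went from −0.05 to 0.56, Junb and Egr2 from 0.09 to 0.56, and Jun and Jund were left at 0.22. These values are descriptions, and the libraries behind them are not independent.

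The deposited table places Fos at chr12:85473890-85477273, Fosb at chr7:19302721-19310045, Fosl1 at chr19:5447703-5455945, Fosl2 at chr5:32136472-32157831, Jun at chr4:95049034-95052222, Junb at chr8:84976909-84978748, Jund at chr8:70697739-70700616, Egr1 at chr18:34859823-34864984, Egr2 at chr10:67535475-67542188 and Egr3 at chr14:70077445-70080157 in mm10, and reads were counted over their exons. Fosb, Jun and Junb lie on the minus strand and the others on the plus strand.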

How the data were processed

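Members and gene lists were chosen with earlier results of these data known, so they are no independent test. The authors deposited counts of reads in exons per gene, not normalized, for 40 libraries made with polyA selection. Per the labels and the Methods, reads were demultiplexed with bcl2fastq, trimmed with Trimmomatic, aligned to mm10 with STAR and counted with HTSeq. The annotation release and strand in the counting are not given in the sources used here. A further 1 column of counts belonging to no library was not used.

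Counts were fitted in R 4.3.3 with edgeR 4.0.16. The filterByExpr function left 11853 of 43430 genes, of which 42462 had a symbol. TMM factors, 1 mean per group over 40 libraries, glmQLFit and glmQLFTest were used, with Benjamini-Hochberg adjustment over the 11853 genes and a threshold of 0.05. The SE is the log2 fold change divided by the square root of F, and 95% intervals are 1.96 SE. CPM are scaled by TMM, and log2 CPM used a prior count of 2. Fits were tested on simulated data. Exon lengths and overlaps came from an mm10 annotation that may not be the authors' release, and promoters from RefSeq.

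The authors name edgeR and DESeq2 and state no block, so the main fit has none. The number in the labels marks the mouse, and the 4 libraries of 1 mouse shared deviations from the group means (mean r 0.453, 0.0995 to 0.769 over 60 pairs, 59 of them over 0.1, against −0.107 over 240 other pairs), so the mouse was fitted as a block as an alternative. In 80 pairs of replicates the lowest chi-square per degree of freedom was 9.35, so no library was a copy of another. Other alternatives were DESeq2 1.42.0 and its size factors, no filter, at least 10 counts in every library, the compared libraries alone, each mouse left out and, chosen after the data were seen, library totals as the scale. In the main fit p-values measure the spread between mice within groups and leave the pairing of libraries out. That fit is therefore cautious for treatment effects within mice, and genes not called there may still have changed. With the block they measure the spread left after the level of each mouse is removed. Reads carry no molecular identifiers, so counting limits cover counting error only.

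Genes named from lists are at most the 2 largest rises and 2 largest falls called per comparison, with a mean log2 CPM from 1 upward, and for each tested member the 2 genes most like it. Mafk, Jdp2 and Mcl1 were named after their values were seen. For 1 gene of the bZIP list, results are not reported here.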

Additional observations from a re-analysis of the deposited data

Results flagged for a closer look

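In 4 of 72 groups of 5 checked, 1 library lay far from the others, and chance alone gives about 1 in 20. Fosb reached 6.25 CPM in WT mouse 453 with both agents, where the next mouse had 3.72. Fosb was at 2.46 CPM in NDI1 mouse 521 with LPS, with 0.937 CPM next. Fosl1 was at 3.54 CPM in WT mouse 496 with both agents (next 1.21) and at 3.05 CPM in NDI1 mouse 521 with LPS (next 1.22). The high libraries of Fosb and Fosl1 in the LPS group of NDI1 BMDMs thus came from 1 mouse. Neutrophil and fibroblast markers were highest in mouse 496 with both agents, and their part in its Fosl1 level was not tested.

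The piericidin A effect without LPS differed between genotypes for Jun, by −1.52, and for Junb, by −1.02, on the log2 scale in a test of the difference itself. It was smaller in NDI1 BMDMs in both cases. Mouse by mouse, the 5 WT differences of Jun (0.98 to 1.85) lay above the 5 NDI1 differences (−0.06 to 0.18), and so did those of Junb (0.50 to 1.56 against −0.02 to 0.36).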

How the results depend on the processing

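Of 2070 values of single members under an alternative, 1891 kept their direction and side of the threshold, 111 changed sign without passing the test in either fit (14 of them under library totals), 43 lost the call, 19 gained one and 6 with a call reversed. Library totals reversed Jun and Jund with LPS, to −0.084 and −0.638 in WT, −0.068 and −0.480 in NDI1, and −0.045 and −0.569 in NDI1 BMDMs with piericidin A, as these libraries differ in their TMM factors. Counts of called members changed by over 1.5 times as follows, and the causes were not tested beyond the alternatives' construction. With pairing by mouse (the replicate block), 4 rather than 2 passed for piericidin A under LPS in WT, 5 rather than 2 for the genotype difference without LPS and 1 rather than 0 under LPS, and the block changed the further single calls given beside the results and, for Fosl1 with LPS under piericidin A in NDI1, gave an adjusted p of 0.016. It changed no other call of a member. The filter of at least 10 counts, which tests 7 members and drops Fosb, gave 1 rather than 2 for piericidin A under LPS in WT and for NDI1 against WT with both agents. The compared libraries alone gave 1 for piericidin A under LPS in WT and for the genotype difference without LPS, and 3 rather than 5 for NDI1 against WT with piericidin A. Without 1 mouse, counts ranged from 2 to 3 for LPS under piericidin A in NDI1 (2 without 460, 461 or 521), and from 1 to 2 for piericidin A under LPS in WT, the changed LPS effect and the genotype difference without LPS. With LPS in NDI1 they ranged from 4 to 6, with 6 without mouse 521.

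Over all genes, pairing gave 4049 calls against 1759 for piericidin A without LPS in WT, 4090 against 1983 under LPS, 2066 against 563 for the changed LPS effect, and 1062 against 150 and 1127 against 116 for the genotype differences without and under LPS. DESeq2 gave 285 and 225 for the last pair. The compared libraries alone gave 891 for piericidin A under LPS in WT, 354 for the changed LPS effect, 49 for the genotype difference under LPS (72 with no filter), and 477 against 924 and 398 against 1421 for NDI1 against WT with piericidin A and with both. Library totals gave 1390 for the former. Without mouse 496, piericidin A gave 788 and 845 calls in WT and the changed LPS effect 163. Depth limits Fosl1, Fosb and Egr3, which had few counts.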
